A study of Homo sapiens with 16 samples.

Results

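The genes described here are vimentin (VIM) and 7 keratins (KRT5, KRT7, KRT8, KRT14, KRT17, KRT18 and KRT19), chosen by symbol as 8 of the 20114 genes in the deposited count table. The rule is a list of symbols and applies no threshold to measured values. RNA sequencing was done on 2 human cell lines, Hs578 and TT642, either as parental cells or as derived lines carrying 1 of 3 short hairpin RNAs against PRRX1 (shPRRX1_1, shPRRX1_2 and shPRRX1_3). PRRX1 is a homeobox transcription factor of mesenchymal cells, and the hairpins are expressed when doxycycline is given, here at 3 µg/ml.

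Each line gave 8 libraries in 4 groups. Parental cells without a hairpin were sequenced once without and once with doxycycline. The 3 hairpin lines were each sequenced without and with doxycycline, so those groups hold 3 libraries, 1 per hairpin. A hairpin library is called uninduced without doxycycline and induced with it. Nothing in the labels says that libraries came from separate cultures, and each hairpin marks 1 derived line, and the p-values below thus reflect the spread among these libraries alone, which may be technical. The sample labels call Hs578 breast cancer cells and TT642 rhabdoid tumor cells, whereas the series describes both as triple-negative breast cancer lines. How long doxycycline was given is not stated in the labels.

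Intermediate filaments are the rope-like cytoskeletal polymers that give cells mechanical strength. Keratins are obligate heteropolymers: a type I chain (KRT14, KRT17, KRT18, KRT19) pairs with a type II chain (KRT5, KRT7, KRT8), whereas vimentin polymerises with itself. In breast, KRT8 and KRT18 are the typical pair of luminal cells, with KRT7 and KRT19 also in luminal and ductal cells, and KRT5 with KRT14 and KRT17 mark basal cells. Vimentin is the filament of mesenchymal cells and is also made by carcinoma cells that have lost epithelial traits. Rhabdoid tumor cells are known for filament inclusions that hold vimentin and keratins.

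Total counts per library ran from 13461527 to 24672906. Levels in CPM are counts scaled to library size, after TMM scaling for differences in library composition. PRRX1 fell from between 227 and 291 CPM in uninduced Hs578 lines to between 37.1 and 72.8 CPM on induction (log2 fold change -2.28 ± 0.37 SE, adjusted p = 0.0022 by edgeR's quasi-likelihood test), while the parental pair read 290 and 298 CPM. In TT642 it read 1210 to 1410 CPM in uninduced lines and 184 to 513 CPM in induced lines, lower in each line (log2 -2.03 ± 0.36 SE) but not called by edgeR (adjusted p = 0.17). DESeq2 (adjusted p = 6.4e-05) and limma on log2(FPKM + 1) (adjusted p = 0.023) called it, and the parental pair read 1480 and 1530 CPM. CDH1 and EPCAM, which define epithelial cells, had group means of at most 0.218 and 0.27 CPM in both lines. SMARCB1, the gene that rhabdoid tumors usually lose, stood at 38.3 ± 2.89 CPM in uninduced TT642 lines and 98.1 ± 6.92 CPM in uninduced Hs578 lines (SD, n = 3). The share of mitochondrial genes was 2.16% to 2.79% of counts without doxycycline in Hs578 (4 libraries) and 3.18% to 5.44% with it (4 libraries). In TT642 the share was 2.59% to 3.98% over all libraries.

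Of the 8 genes, 5 passed the expression filter that left 14035 genes to test: VIM, KRT7, KRT8, KRT14 and KRT18. KRT5, KRT17 and KRT19 had at most 7 counts in any library and were not tested. Levels of different genes are compared below as FPKM, which divides by transcript length as well as by depth. Exceptions are the ratio of KRT18 to KRT8, given by counts and by FPKM, and sums of CPM over gene lists.

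Hs578 cells held vimentin together with a set of keratins, and TT642 cells held vimentin with little RNA of these 7 keratins. Over the 8 Hs578 libraries the median level was 2000 FPKM for VIM (range 1830 to 2500) and 190 FPKM for KRT18 (109 to 253). KRT8 followed at 22.9 FPKM (19.4 to 47.3), KRT14 at 4.2 (3.27 to 16.4) and KRT7 at 2.38 (1.96 to 5.01). The ranges of VIM, KRT18 and KRT8 did not touch, whereas those of KRT14 and KRT7 overlapped. KRT17, KRT19 and KRT5 had medians of 0.226, 0.298 and 0.0319 FPKM with overlapping ranges and stand in no firm order. In TT642 the VIM median was 5500 FPKM (4980 to 5690), and the highest value of the 7 keratins in any library was 2.51 FPKM, for KRT8. KRT10, a keratin outside this set, read 8.2 to 9.28 FPKM in TT642. In TT642 the ranges of KRT8 (0.347 to 2.51 FPKM) and KRT17 (0.49 to 1.44) overlapped, as did those of KRT18 (0.0798 to 0.938) and KRT7 (0 to 0.371), while KRT17 lay above KRT7 in all libraries. VIM made up 87.5% to 93.4% of the summed FPKM of the 8 genes in Hs578 and at least 99.9% in TT642. Among all genes VIM ranked 2 to 7 by FPKM in TT642 libraries and 22 to 37 in Hs578.

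**Figure D1:**
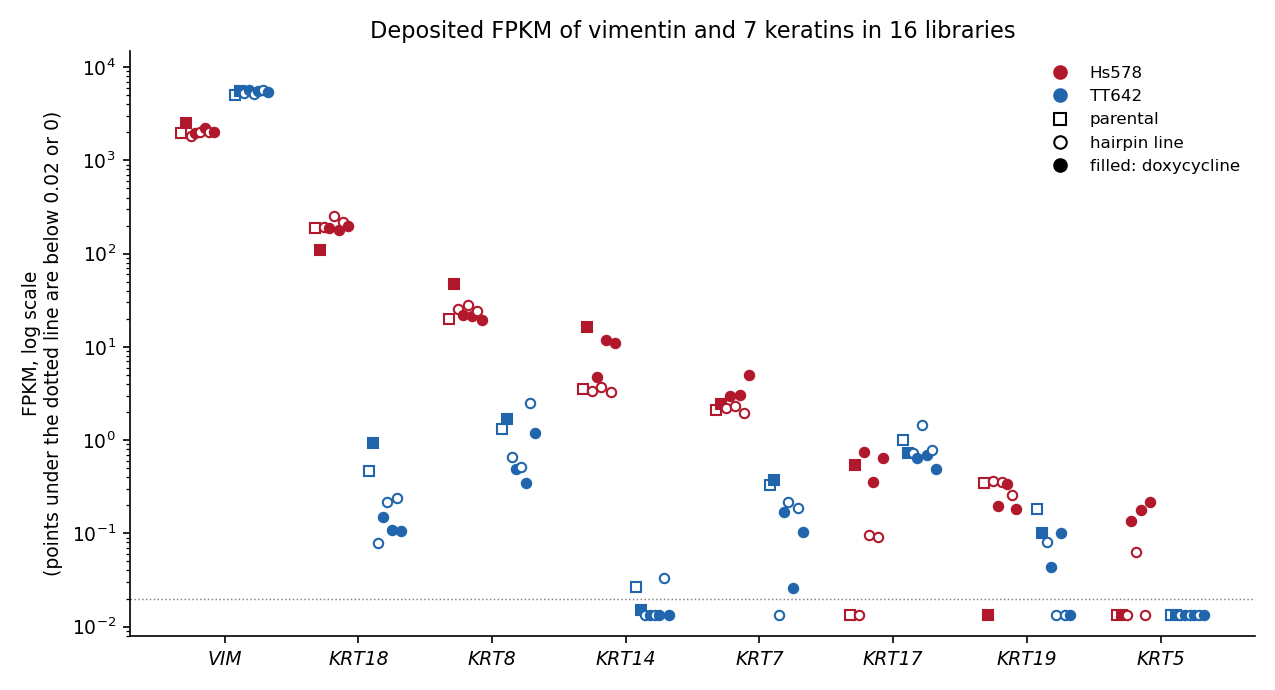
Deposited FPKM on a log axis for the 8 genes, 1 point per library, with Hs578 in red, TT642 in blue, squares for parental cells, circles for hairpin lines and filled symbols for doxycycline. KRT18, KRT8, KRT14 and KRT7 lie higher in Hs578 than in TT642 in all libraries shown, VIM lies higher in TT642, and values under 0.02 FPKM are drawn below the dotted line.

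Uninduced hairpin lines of Hs578 and TT642 were compared to ask how far the lines differ before PRRX1 is targeted. All 5 tested genes differed: KRT7, KRT8, KRT14 and KRT18 were higher in Hs578, and VIM was lower. The same comparison called 80.8% of all tested genes, 41% higher and 39.7% lower in Hs578, so a call here is the usual outcome. KRT14 passed the expression filter only through Hs578, so it could be called only in that direction, whereas the other 4 also passed in TT642 libraries alone.

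VIM counts came to 4080, 4430 and 4300 CPM in Hs578 hairpin lines 1, 2 and 3, against 10200, 10200 and 11000 CPM in TT642. The groups did not overlap, and VIM was 2.45-fold lower in Hs578 (log2 difference -1.29 ± 0.099 SE, adjusted p = 1.2e-08 by edgeR). The single parental libraries stood the same way, at 4200 CPM in Hs578 and 9920 CPM in TT642. Of all counts, VIM took 0.388% to 0.529% in Hs578 and 1.05% to 1.2% in TT642. In bulk RNA, fewer cells expressing a gene and less RNA per cell cannot be told apart.

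KRT18, the type I partner of KRT8 in simple epithelia, showed the widest gap that the counts measure well. It read 311, 401 and 333 CPM in the Hs578 hairpin lines and 0.113, 0.34 and 0.334 CPM in those of TT642, where these values rest on 2, 7 and 6 counts. The fitted difference was 10.31 ± 0.2 SE on the log2 scale (adjusted p = 9.9e-15 by edgeR). As a ratio of summed counts scaled for depth, KRT18 was 1300-fold higher in Hs578, with a 95% counting interval from 789 to 2330. In parental cells, with 5007 counts against 14, the ratio was 443 (264 to 812), in the same direction. The counting intervals of parental and hairpin libraries overlapped slightly. Such overlap is no test, and whether the ratio differs in size between parental cells and hairpin lines was not tested.

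KRT8, the type II partner, read 34.2, 36.8 and 37.5 CPM in Hs578 and 0.283, 0.486 and 1 CPM in TT642. All 3 Hs578 values lay far above the TT642 values (log2 difference 5.93 ± 0.33 SE, adjusted p = 1.8e-09). The count ratio was 61.6 (43.7 to 89.7) in hairpin lines and 36.1 (22.6 to 61.4) in parental cells. KRT7 read 5, 5.36 and 4.38 CPM in Hs578 and 0, 0.389 and 0.389 CPM in TT642 (log2 difference 4.17 ± 0.48 SE, adjusted p = 1.5e-06). Its count ratio was 18.4 (10.9 to 33.3) in hairpin lines and 7.26 (4.09 to 13.9) in parental cells, and the TT642 side of it rests on 15 and 14 counts.

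KRT14, the type I partner of KRT5 in basal cells, was close to undetected in TT642. It had 325 counts in the 3 uninduced Hs578 hairpin libraries and 1 in those of TT642, a ratio of 358 with an interval from 63.8 to 14200. All 8 TT642 libraries together held 1 KRT14 count. In parental cells 111 counts stood against 0, and against a floor of 3 counts KRT14 was at least 45.9-fold higher in Hs578. The lower limit of the exact two-sided interval, the kind used for the other ratios, was 36.7. With that floor a count of 0 in a TT642 library allows a level of up to 0.115 to 0.181 CPM, depending on its depth, and the exact two-sided upper limits were 0.142 to 0.222 CPM. These intervals and floors cover counting error only.

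The remaining 3 keratins were at the limit of detection in both lines. KRT5 had 9 counts over the 8 Hs578 libraries and 0 in TT642. KRT19 had 28 counts over the Hs578 libraries, 0 to 6 each, and 10 over the TT642 libraries, 0 to 3 each. In uninduced hairpin lines 12 KRT19 counts stood against 3, a ratio of 4.41 with an interval from 1.19 to 24.3. That interval covers counting error only. With no expression filter the KRT19 difference was not called (log2 difference 2, adjusted p = 0.084 by edgeR). KRT17 was the only one of the 7 keratins with more counts in TT642, 21 over its 8 libraries against 5 over those of Hs578. Its counts in uninduced hairpin lines were 0 in Hs578 and 7 in TT642, and with no expression filter the difference was called (log2 difference -4.24, adjusted p = 0.033 by edgeR), a fitted value that rests on the prior count and is no measure of size.

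Basal keratins are close in sequence, which bears on how reads are assigned among them. KRT14, KRT16 and KRT17 neighbour one another in the type I gene cluster, and the coding sequences of KRT14 and KRT17 were 85.2% identical over 1296 aligned bases in the GENCODE release 29 transcripts (GRCh38, given in the sense of the transcript). KRT14 and KRT16 were 88.7% identical over 1389 bases. The longest identical run between KRT14 and KRT17 was 59 bases and is shown in capitals with 10 flanking bases on each side, because a 50-base read within it cannot be told apart between these genes. In KRT14 the stretch covers coding bases 843 to 921, and in KRT17 bases 750 to 828, counted from 1 at the start of the coding sequence.
KRT14: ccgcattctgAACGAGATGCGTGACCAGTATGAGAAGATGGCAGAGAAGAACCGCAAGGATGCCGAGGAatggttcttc
KRT17: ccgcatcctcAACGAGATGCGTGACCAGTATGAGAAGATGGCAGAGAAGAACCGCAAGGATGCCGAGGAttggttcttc

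KRT16 shares a longer run with KRT14, 158 bases, shown in the same way because it is the longest identical coding stretch among these 3 genes. It covers coding bases 300 to 477 of KRT14 and 306 to 483 of KRT16.
KRT14: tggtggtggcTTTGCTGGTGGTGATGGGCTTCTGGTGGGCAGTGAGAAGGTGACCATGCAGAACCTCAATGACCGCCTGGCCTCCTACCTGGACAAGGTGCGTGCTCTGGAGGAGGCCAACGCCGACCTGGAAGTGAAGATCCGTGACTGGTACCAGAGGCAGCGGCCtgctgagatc
KRT16: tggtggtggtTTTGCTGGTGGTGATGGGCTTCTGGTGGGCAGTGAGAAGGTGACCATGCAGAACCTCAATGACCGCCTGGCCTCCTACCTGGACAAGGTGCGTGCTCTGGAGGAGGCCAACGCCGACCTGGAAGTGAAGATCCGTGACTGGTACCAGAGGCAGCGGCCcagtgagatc

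The share of each gene's 50-base windows with an exact match in another gene's transcripts, on either strand, differed widely. It was 47.6% for KRT18 and 36.9% for KRT8, whose many processed pseudogenes number 68 and 52 by symbol in the RefSeq table. The gene sharing most with KRT18 was its neighbour KRT8, at 21.5% of KRT18 windows, followed by the pseudogene KRT18P11 at 9.98%. Whether the matches with KRT8 come from annotated transcripts that overlap at this locus, or lie on the opposite strand, was not tested. They are thus no measure of likeness between the KRT8 and KRT18 coding sequences. KRT8 shared 19% of its windows with the pseudogene KRT8P3 and 4.19% with KRT18. KRT14 shared 23.8% of its windows, KRT17 16%, KRT7 10.8%, KRT5 3.99% and KRT19 1.79%. For VIM the share was 43.8%, most of it, 32.5% of its windows, with its antisense gene VIM-AS1. How the authors' counting assigned such reads is not known here, and the levels of KRT8, KRT18, KRT14 and KRT17 carry that uncertainty. The ratio of KRT18 to KRT8 given below carries it too.

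KRT17 is the gene in which the deposited counts and FPKM values part most clearly. In the 4 Hs578 libraries with doxycycline, KRT17 was listed at 0.541 FPKM in parental cells and at 0.751, 0.356 and 0.645 FPKM in hairpin lines 1 to 3, on counts of 2, 3, 0 and 0. Without doxycycline the counts were all 0 and the highest FPKM was 0.0953. Where both values exist, 1 CPM of KRT17 corresponded to 3.11 to 14.2 FPKM, against 0.474 to 0.593 FPKM for KRT14 and 0.398 to 0.519 for VIM. Whether shared reads account for this was not tested. KRT8 also varied in this respect, from 0.471 to 0.839 FPKM per CPM among Hs578 libraries and from 1.07 to 2.51 among TT642 libraries. By FPKM, KRT8 stood at 25.8 ± 1.92 in uninduced Hs578 lines and 1.23 ± 1.11 in those of TT642 (SD, n = 3), a narrower gap than by counts.

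In Hs578, induction of the hairpins was compared with the uninduced lines to ask what changes when PRRX1 falls. KRT14 and KRT7 rose, and VIM, KRT8 and KRT18 did not pass the test. These are 2 of 5 tested genes, and the comparison called 29.3% of all tested genes, with 15.2% of all tested genes called higher. With 5 genes, nothing particular to the set is read from the count. The median log2 fold change was 0.2 over the 5 genes and 0 over all tested genes. The hairpin comparison contains doxycycline itself, and the parental pair, 1 library without and 1 with it, is given beside each value.

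KRT14 read 6.33, 6.83 and 5.99 CPM in uninduced lines 1, 2 and 3 and 9.11, 24.1 and 23.1 CPM in the same lines induced. The groups did not overlap, and line 1 moved least, 1.44-fold against 3.53-fold and 3.85-fold. The means were 6.38 ± 0.421 and 18.8 ± 8.37 CPM (SD, n = 3), and the fold change was 2.93 (log2 1.55 ± 0.32 SE, adjusted p = 0.0054 by edgeR). An exact two-sided permutation test of the 6 values gave p = 0.1, the smallest that 3 against 3 allows. Parental cells, which carry no hairpin, went from 6.37 CPM (95% counting interval 5.24 to 7.67) to 32.2 CPM (29.4 to 35.2) with doxycycline, a 5.05-fold difference in 1 pair and larger than in any hairpin line. The call was lost without hairpin line 2 (log2 1.38, adjusted p = 0.05) and without line 3 (1.32, adjusted p = 0.16).

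KRT7, a type II keratin of simple and ductal epithelia, read 5, 5.36 and 4.38 CPM in uninduced lines and 6.8, 7.67 and 13.6 CPM in induced lines. The groups did not overlap, with line 3 the highest at 3.11-fold and lines 1 and 2 at 1.36-fold and 1.43-fold. The fold change on the log2 scale was 0.94 ± 0.33 SE (adjusted p = 0.048 by edgeR), close to the threshold of 0.05. Without line 3 it was 0.47 (adjusted p = 0.51), and without line 2 the adjusted p was 0.089. Parental cells read 4.71 and 6.28 CPM, with overlapping 95% counting intervals of 3.74 to 5.84 and 5.07 to 7.69.

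VIM read 4080, 4430 and 4300 CPM in uninduced lines and 4330, 5310 and 5070 CPM in induced lines. Each line read higher with doxycycline, by 1.06-fold, 1.2-fold and 1.18-fold, but the groups overlapped and the difference was not called (log2 0.2 ± 0.097 SE, adjusted p = 0.14 by edgeR). It was called without the induced library of hairpin 1 (log2 0.28, adjusted p = 0.022). The parental pair went from 4200 to 5870 CPM, 1.4-fold, more than in any hairpin line. By FPKM the same 4 ratios were 1.27 in parental cells and 1.07, 1.11 and 1.01 in lines 1 to 3.

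KRT18 read 311, 401 and 333 CPM in uninduced lines and 294, 306 and 348 CPM in induced lines, with no common direction (log2 -0.14 ± 0.11 SE, adjusted p = 0.35). KRT8 read 34.2, 36.8 and 37.5 CPM and then 27.7, 40.2 and 41.3 CPM, a fitted log2 change of 0.01 ± 0.21 SE (adjusted p = 1). In the parental pair these partners went opposite ways: KRT18 went from 287 CPM (279 to 295) to 185 CPM (178 to 192), and KRT8 from 30.1 CPM (27.5 to 32.8) to 56.4 CPM (52.7 to 60.4). Counting error is small beside both differences, but 1 pair of libraries has no replicate check.

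**Figure D2:**
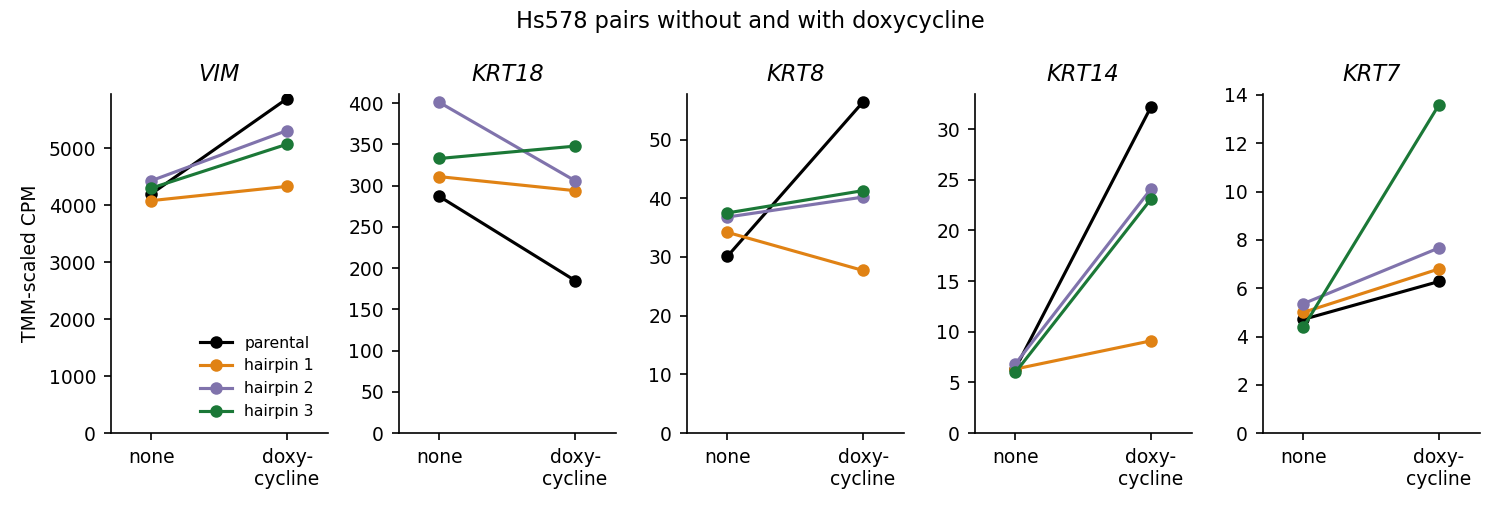
TMM-scaled CPM of the 5 tested genes in Hs578 without and with doxycycline, 1 line per pair, with parental cells in black and hairpin lines 1, 2 and 3 in orange, purple and green, and each vertical axis starting at 0. KRT14 is higher with doxycycline in each pair and highest in parental cells at 32.2 CPM, and the parental pair stands apart from the hairpin lines in KRT18 and KRT8.

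The ratio of KRT18 to KRT8 counts shows the parental pair most plainly. It was 9.56 in parental cells without doxycycline and 3.27 with it. In the hairpin lines it was 9.09, 10.9 and 8.87 uninduced and 10.6, 7.61 and 8.44 induced. The 7 libraries other than the treated parental one therefore lay between 7.61 and 10.9. By FPKM the treated parental library was also lowest, at 2.31, against 7.53 to 10.1 in the other 7. In TT642 the count ratio was 0.154 to 1, on at most 30 counts of either gene.

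**Figure D3:**
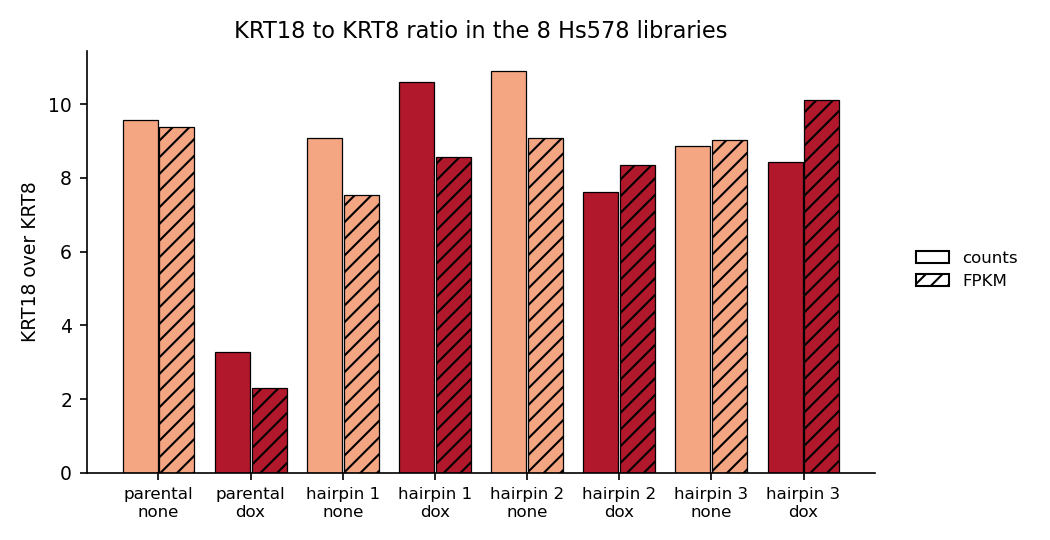
Ratio of KRT18 to KRT8 in each Hs578 library, by counts (plain bars) and by FPKM (hatched bars), with light bars for no doxycycline and dark bars for doxycycline and the axis starting at 0. The parental library with doxycycline is lowest on both scales, at 3.27 by counts and 2.31 by FPKM.

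When the parental doxycycline effect was subtracted from the Hs578 hairpin effect, none of the 5 genes was called by edgeR or DESeq2, against 0.406% of all tested genes by edgeR. KRT18 alone had an unadjusted p under 0.05 (log2 0.5 ± 0.22 SE, adjusted p = 0.31 by edgeR). The other net values were -0.78 ± 0.62 for KRT14, -0.9 ± 0.42 for KRT8, -0.29 ± 0.19 for VIM and 0.52 ± 0.67 for KRT7, with adjusted p from 0.36 to 0.8. This contrast rests on 1 parental pair. The rise of KRT14 and KRT7 in hairpin lines was thus not shown to exceed the doxycycline difference in parental cells. The mitochondrial share of counts also rose with doxycycline in Hs578, from 2.73% to 4.16% in parental cells and from 2.79%, 2.29% and 2.16% to 3.18%, 4.27% and 5.44% in lines 1 to 3, and its part in these changes was not tested.

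In TT642 no member was called on induction by edgeR or DESeq2, none had an unadjusted p under 0.05 by edgeR, and 0.0285% of all tested genes were called. VIM read 10200, 10200 and 11000 CPM in uninduced lines and 11000, 10900 and 10900 CPM in induced lines (log2 0.06 ± 0.097 SE, adjusted p = 0.96). Its parental pair read 9920 and 10900 CPM. The keratins rested on few counts: KRT18 had 2, 7 and 6 counts uninduced and 2, 3 and 4 induced (log2 -0.89 ± 0.52 SE, adjusted p = 0.75). KRT8 had 5, 10 and 18 counts and then 5, 7 and 26, and KRT7 had 0, 8 and 7 and then 5, 3 and 6. At these counts a change of the keratins in TT642 was not detectable unless large. The median log2 change was -0.27 over the 5 genes, in which KRT14 rests on 1 count, and 0 over all tested genes.

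**Figure D4:**
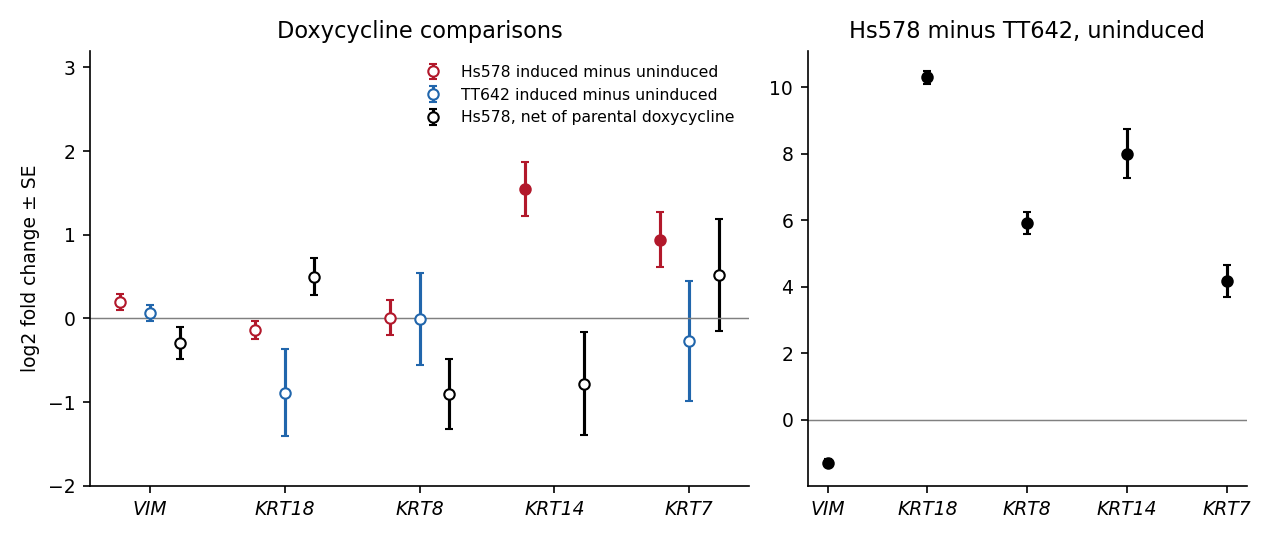
Left, log2 fold changes ± SE of the 5 tested genes for hairpin induction in Hs578 (red), in TT642 (blue) and in Hs578 net of parental doxycycline (black), with filled points where the adjusted p was under 0.05. Right, the log2 difference ± SE between uninduced Hs578 and TT642 hairpin lines, where VIM is lower in Hs578 and the 4 keratins are higher. KRT14 in TT642 has too few counts and is not drawn on the left.

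The hairpin effects in the lines were then compared with each other. None of the 5 genes differed by edgeR or DESeq2, none had an unadjusted p under 0.05, and 5.24% of all tested genes were called. The difference, Hs578 minus TT642, was 0.14 ± 0.14 for VIM (log2, SE, adjusted p = 0.57), 1.21 ± 0.81 for KRT7, 0.01 ± 0.58 for KRT8 and 0.75 ± 0.53 for KRT18. The rise of KRT7 called in Hs578 was therefore not shown to differ from TT642.

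Without doxycycline, hairpin lines were also set against the single parental library of their line. In Hs578 no member was called, none had an unadjusted p under 0.05, and 0% of all tested genes were called. The log2 differences ran from 0 for KRT14 to 0.28 ± 0.15 for KRT18. In TT642 no member was called, against 0.919% of tested genes, and KRT18 had the only unadjusted p under 0.05 (log2 -1.27 ± 0.5 SE, adjusted p = 0.31 by edgeR). Parental TT642 cells read 0.651 CPM of KRT18 without and 1.54 CPM with doxycycline, on 14 and 30 counts, above all 6 hairpin libraries, which read 0.113 to 0.34 CPM. Net of the parental pair, KRT18 in TT642 gave log2 -2.13 ± 0.68 SE (adjusted p = 1), and none of the 14035 tested genes was called there (0%), although 179 had an unadjusted p under 0.05. DESeq2 called 0 genes in that comparison and in that of the uninduced Hs578 lines with parental cells, in which 268 genes had an unadjusted p under 0.05 by edgeR.

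Other keratins were also mostly higher in Hs578. Of 21 further keratins, 10 were tested, and between uninduced lines 8 were higher in Hs578 and 1 lower. The shares over all tested genes were 41% higher and 39.7% lower. Of these 10, 5 passed the expression filter through Hs578 alone, so the count is no measure of the whole list. KRT15, a type I keratin of basal cells, read 16.2 ± 0.578 CPM in Hs578 and 0.0722 ± 0.0341 CPM in TT642 (log2 7.7 ± 0.3 SE, adjusted p = 5.5e-12). On induction in Hs578, 2 of the 10 rose and 1 fell, with a median of 0.24, where 29.3% of all tested genes were called. Net of the parental doxycycline pair none of the 10 was called, with a median of -0.37. KRT3, known from cornea, went from 1.49 ± 0.136 to 5.72 ± 2.04 CPM (log2 1.94 ± 0.32 SE, adjusted p = 0.0021), and parental cells from 0.803 to 6.21 CPM. KRT81, a hair keratin, went from 5.46 ± 1.4 to 16.6 ± 11.5 CPM (log2 1.62 ± 0.44 SE, adjusted p = 0.02), with line 3 at 29.9 CPM and line 2 at 7.07 and 9.49 CPM, and parental cells from 4.99 to 23.8 CPM. KRT75, a hair follicle keratin, fell from 3.4 ± 1.67 to 0.64 ± 0.472 CPM (log2 -2.33 ± 0.52 SE, adjusted p = 0.0094), while parental cells read 2.7 and 2.02 CPM.

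Among 13 tested genes of other intermediate filaments, 3 were higher and 7 lower in uninduced Hs578 than in TT642. The shares over all tested genes were 41% higher and 39.7% lower. Of the 13 filament genes, 5 passed the filter through TT642 alone. The 3 largest calls were filaments of neurons. Peripherin (PRPH) read 369 ± 97.3 CPM in TT642 and 0.297 ± 0.162 CPM in Hs578, and the heavy neurofilament chain (NEFH) 82 ± 8.29 and 0.0397 ± 0.0344 CPM. Internexin (INA) read 15.6 ± 4.43 CPM in TT642 and 0 in Hs578. On induction in Hs578, where 29.3% of all tested genes were called, only synemin (SYNM) was called in this list. SYNM copolymerises with vimentin and desmin. It fell from 57.4 ± 5.05 to 36.8 ± 6.57 CPM (log2 -0.64 ± 0.12 SE, adjusted p = 0.0021), and the parental pair went from 61.5 to 33 CPM. Its induction effect differed between the lines (log2 -0.88 ± 0.17 SE, adjusted p = 0.016). Net of the parental pair in Hs578 no gene of this list, SYNM included, was called.

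The proteins that anchor keratins at the cell border were also uneven. Of 14 tested genes of desmosomes and filament linkers, 10 were higher and 4 lower in Hs578, with a median of 1.65. That comparison called 41% of all tested genes higher and 39.7% lower. Desmoplakin (DSP), which ties keratins to desmosomes, read 197 ± 18.3 CPM in Hs578 and 0.123 ± 0.0585 CPM in TT642 (log2 10.55 ± 0.22 SE, adjusted p = 2.7e-14). All 7 hemidesmosome genes were higher in Hs578, 1 of them tested only through Hs578, among them LAMB3, a laminin chain of hemidesmosomes, at 137 ± 5.81 against 0.347 ± 0.195 CPM. On induction in Hs578, 1 linker gene rose and 3 fell, with a median of -0.23, where 29.3% of all tested genes were called. Dystonin (DST) fell by 0.71 and MACF1 by 0.66 on the log2 scale (adjusted p = 0.0031 and 0.002 by edgeR). The parental pair also read lower with doxycycline, 824 and 518 CPM for DST and 573 and 354 CPM for MACF1. Net of that pair no linker gene was called. Of the hemidesmosome genes 2 rose and 3 fell, with a median of -0.16. The integrin chain ITGA6 fell from 231 ± 18.6 to 107 ± 23.1 CPM (log2 -1.12 ± 0.19 SE, adjusted p = 0.0017), and the parental pair read 251 and 197 CPM. ITGB4, its partner, fell by 1.08 on the log2 scale (adjusted p = 0.046), while parental cells read 2.18 and 6.61 CPM. Net of the parental pair no hemidesmosome gene was called, with a median of -0.42.

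Epithelial genes other than keratins did not separate the lines in 1 direction. Of 24 listed, 9 were tested, and 4 were higher and 4 lower in Hs578, with a median of 0.43. That comparison called 41% of all tested genes higher and 39.7% lower. The summed level of the 24 was 19.1 to 33.1 CPM in Hs578 and 95.5 to 139 CPM in TT642. Most of the TT642 sum was MUC1. In uninduced TT642 lines MUC1 read 76.7 ± 13.2 CPM of a sum of 98.7 to 124 CPM, against 13.9 ± 1.32 CPM in those of Hs578. The sum, which is not divided by transcript length, is thus no measure of how epithelial a line is. Of 21 mesenchymal genes, 15 were higher and 5 lower in Hs578, with a median of 2.31. Fibronectin (FN1) read 10900 ± 1030 CPM in Hs578 and 0.758 ± 0.497 CPM in TT642, opposite in direction to VIM. N-cadherin (CDH2) read 343 ± 14.5 CPM and 165 ± 86.9 CPM in the uninduced hairpin lines (log2 1.06 ± 0.44 SE, adjusted p = 0.048 by edgeR). The single parental libraries without doxycycline stood the other way, at 366 CPM in Hs578 and 499 CPM in TT642. On induction in Hs578, 7 of the 21 mesenchymal genes rose and 1 fell, with a median of 0.41. Of all tested genes, 29.3% were called in that comparison and 15.2% were called higher. Net of the parental doxycycline pair no mesenchymal gene was called, with a median of -0.4, so the rise was not shown to exceed that in parental cells. Among the 9 tested epithelial genes 2 rose and none fell, with a median of -0.43, opposite in sign to the calls. Of 13 tested basal breast genes 3 rose and 4 fell (median -0.46), and of 8 luminal genes 3 fell (median -0.2). Net of the parental pair no epithelial or luminal gene was called, and 1 basal breast gene was lower. Markers of cells other than breast or mesenchyme were low or uneven: on induction in Hs578, 0 of 4 tested blood cell, 0 of 2 endothelial, 1 of 2 muscle and 1 of 5 neural genes were called, the last 2 higher. No gene of any list was called on induction in TT642.

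The genes most like each member were sought by Pearson correlation of log2 CPM over the 16 libraries after the mean of each line was subtracted, among 10350 genes (10351 for KRT7 and KRT14) at a mean of 2 or more on that scale. These are descriptions over libraries that share lines and treatments. KRT14 was followed most closely by KCTD13 (r = 0.97), CRIP2 (0.96) and TCEA2 (0.96). With 1 KRT14 count over the TT642 libraries, these values rest on Hs578, where they were 0.99, 0.98 and 0.97. VIM was followed by NR1H2, GLT8D1 and YIPF2, each at 0.95. For KRT18 they were ECHDC1 (0.88), TMEM70 (0.85) and ZFP42 (0.85), and for KRT8 RGS3 (0.85), MAP3K5 (0.84) and WNT5A (0.84). Within Hs578 alone ZFP42 correlated with KRT18 at -0.09 and MAP3K5 with KRT8 at 0.24, against 0.9 and 0.91 within TT642, where KRT18 and KRT8 had 2 to 30 counts. The other values within Hs578 were 0.88 and 0.77 for ECHDC1 and TMEM70, and 0.94 and 0.63 for RGS3 and WNT5A. For KRT7 they were RWDD1 (0.82), GLRX5 (0.8) and FAM200B (0.8). Among the members themselves, VIM and KRT14 moved together most closely, at 0.92 over the 16 libraries and 0.96 over the 8 of Hs578. The value over 16 libraries has the same limit from KRT14 in TT642. KRT8 and KRT18 correlated at 0.63 over all libraries and at -0.51 within Hs578, where the treated parental library lies apart in both genes. VIM and KRT18 correlated at -0.58 within Hs578.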

How the data were processed

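Libraries of polyadenylated RNA were made with a stranded TruSeq kit, per the labels' protocols. The authors deposited whole-number counts per gene and FPKM values, and the submitters' processing notes name hg19 as the build. No source used here gives the aligner, annotation, counting tool or use of strand. Columns were assigned by sample title. No pair of libraries agreed within sampling noise (lowest chi-square per degree of freedom 5.35). Counts were tested with edgeR 4.0.16 (TMM scaling, its default expression filter, robust quasi-likelihood test, two-sided), with 1 mean for each of 8 groups over 16 libraries and 8 residual degrees of freedom. Parental groups of 1 library were assumed to vary like the others. P-values were adjusted by Benjamini-Hochberg over 14035 genes and called under 0.05. FPKM were tested with limma 3.58.1 on log2(FPKM + 1) and log2(FPKM + 0.1) as alternatives, and counts with DESeq2 1.42.0. Scripts were tested on simulated data. Counting intervals are exact at the 95% level.

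Hairpin libraries with the same number were made from 1 derived line, which pairs them. Their deviations correlated at 0.42 to 0.44 in TT642 and at -0.03 to 0.13 in Hs578. The members and gene lists were chosen with earlier results of these data known. Named genes were the members, PRRX1 and SMARCB1, CDH1, EPCAM, CDH2 and FN1, up to 3 called genes per list and comparison with the largest change, and the 3 genes most correlated with each tested member.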

Additional observations from a re-analysis of the deposited data

How the results depend on the processing

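The line difference of the 5 tested genes was called under all 15 alternatives. On induction in Hs578, 2 members were called in the reported fit, 1 with RLE scaling, 1 with no filter on low counts, 1 by limma on log2(FPKM + 0.1), and 0 to 3 when replicates or single libraries were left out. KRT7 lost its call in 10 of 16 alternatives (adjusted p 0.015 to 0.51) and KRT14 in 2 (4e-05 to 0.16). The difference of the hairpin effects called 1 member, KRT14, by limma on log2(FPKM + 1), and 0 otherwise. With the replicate block the adjusted p was 0.048 for KRT7 and 0.0071 for KRT14, and the block changed no member's call.

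Values near 0 changed sign, and the cause was not tested. KRT8 on Hs578 induction was -0.03 with RLE scaling and with DESeq2, 0.00 within 1 line, -0.29 and -0.30 by limma with pseudocounts 1 and 0.1, -0.01 with the replicate block, and -0.10 to 0.17 with libraries left out. KRT8 in the difference of effects was -0.01 with RLE and -0.56 to 0.89 with libraries left out. KRT18 there was -0.16 by limma on log2(FPKM + 1). Between uninduced Hs578 hairpin and parental cells, limma gave -0.02 for VIM with both pseudocounts and -0.04 and -0.05 for KRT14. With libraries left out, KRT14 there ran from -0.05 to 0.05, KRT7 from -0.01 to 0.14 and VIM from 0.00 to 0.06. In TT642, KRT7 on induction ran from -1.02 to 0.39 and net of parental cells from -1.06 to 0.36, and KRT8 on induction from -0.89 to 0.57. The PRRX1 difference of effects ran from -0.97 to 0.30.

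Depth limits the 7 keratins of the set in TT642, which had at most 30 counts in a library. PRRX1 on TT642 induction was called in 4 of 16 alternatives (adjusted p 6.4e-05 to 0.87), not with the replicate block (0.16). The background of all genes called also moved. It ran from 840 (without hairpin line 3) to 4862 for Hs578 induction (reported 4118), 0 to 79 for TT642 induction (4; 46 with the replicate block), 2 to 2082 for their difference (735; 1763 with the block), 54 to 212 for TT642 hairpin against parental cells (129) and 0 to 296 for Hs578 net of parental cells (57; 140 with the block).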
